A study of Mus musculus with 12 samples.

Results

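A set of 10 genes of the FOXO axis was followed in activated mouse CD8+ T cells. It held the 3 transcription factors Foxo1, Foxo3 and Foxo4 and 7 genes counted among FOXO targets: Sesn1, Ccng2, Pik3ip1, Irs2, Trp53inp1, Btg1 and Tob1. The 7 were grouped as genes that restrain growth, although Irs2 encodes an adaptor of the insulin and IGF1 receptors. The 10 were chosen by gene symbol with earlier results of these data known, and all were found among the 54532 genes listed. The cells were wild-type (WT) primary CD8+ T cells, which the study's methods take from spleen and peripheral lymph nodes of adult C57BL/6 mice. After activation they received a non-targeting siRNA (siNTC) or an siRNA against Creb1 (siCreb1), and were then kept for 24 h with 20 µM trans-vaccenic acid (TVA), a long-chain fatty acid, or without it (labelled DMSO). The 4 groups, siNTC, siNTC plus TVA, siCreb1 and siCreb1 plus TVA, had 3 libraries each. All of them were transfected, so none shows untransfected cells, and neither labels nor methods say whether the replicates came from separate mice. P-values therefore measure the spread between these libraries, which may be technical.

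FOXO proteins are forkhead transcription factors that sit at the end of the PI3K and AKT pathway. When antigen, costimulation or growth factors activate that pathway, AKT and SGK phosphorylate FOXO proteins and 14-3-3 proteins hold them in the cytoplasm. When signalling is low, FOXO proteins enter the nucleus and raise genes that slow the cell cycle, dampen growth signalling and keep lymphocytes in a naive or memory-like, recirculating state. This control acts largely on the protein, so the level of a FOXO mRNA is not a measure of FOXO activity. CREB, the product of Creb1, is a cAMP-responsive transcription factor that binds cAMP response elements (CREs).

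TVA lowered 6 of the 10 genes in siNTC cells, where 2.88% of all genes tested were called lower, and 0 by limma in siCreb1 cells, where 0.537% were called in either direction. The 6 include Foxo4, which the study picked from these samples, so the count is not independent of these data. Leaving out single libraries gave 2 to 6 in siNTC cells. The count was 2 without siNTC plus TVA replicate 2 or 3 and 3 without siNTC replicate 1 or 3. With TVA the mean fell to 81.0% of the siNTC mean for Pik3ip1, 81.6% for Irs2, 84.0% for Foxo4, 87.0% for Btg1, 90.5% for Foxo3 and 91.2% for Sesn1. Knockdown of Creb1 without TVA by itself lowered 5 genes, against 7.21% of all genes, to 80.4% for Irs2, 83.3% for Pik3ip1, 84.0% for Btg1, 90.3% for Sesn1 and 90.9% for Foxo1. The TVA effect differed between siCreb1 and siNTC cells, in a test of the difference itself, for Btg1 and Pik3ip1, where 2.24% of all genes were called. The Pik3ip1 call held in 8 of 20 alternative analyses.

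The promoters of Btg1 and Irs2 are shown because both genes changed in both of these comparisons and because their promoters hold the 2 FOXO-type motifs that were searched. They are the 250 bases before the RefSeq start (GRCm38.p6), written 5′ to 3′ on the strand of the gene. Motif matches are in capitals. Btg1 lies at chr10:96616751-96617000 on the plus strand and Irs2 at chr8:11008930-11009179 on the minus strand.
Btg1: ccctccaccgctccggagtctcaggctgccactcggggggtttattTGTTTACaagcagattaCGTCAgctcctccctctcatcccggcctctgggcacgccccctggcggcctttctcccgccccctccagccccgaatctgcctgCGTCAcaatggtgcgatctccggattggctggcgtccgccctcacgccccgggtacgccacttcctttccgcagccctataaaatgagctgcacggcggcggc
Irs2: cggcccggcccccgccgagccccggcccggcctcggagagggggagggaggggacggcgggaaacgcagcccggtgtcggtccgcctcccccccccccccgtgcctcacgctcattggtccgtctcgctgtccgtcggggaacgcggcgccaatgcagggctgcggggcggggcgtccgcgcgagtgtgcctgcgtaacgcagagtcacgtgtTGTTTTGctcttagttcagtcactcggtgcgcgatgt
The searched motifs were the FOXO motif GTAAACA, the insulin response element core CAAAACA, the full CRE TGACGTCA and the short CRE TGACG, on both strands. A full CRE also contains a short CRE. RefSeq promoters were matched for 8 of the 10 genes, all but Foxo4 and Trp53inp1, and Sesn1 had 2, which made 9 promoters. In Btg1 the FOXO motif was found on the opposite strand at position -204, counted from the start, and short CREs were found at -187 and -103, likewise on the opposite strand. The insulin response element core was found at -37 in Irs2, on the opposite strand, and at -16 in Ccng2. Short CREs were also present for Sesn1, Foxo3 and Tob1. Thus 1 of the 9 promoters held GTAAACA, 2 held CAAAACA, 4 held the short CRE and 0 the full CRE, where 3.17%, 5.56%, 17.8% and 1.55% of all 32851 promoters did. A match describes letters only.

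The libraries held 16660234 to 24602484 reads, recovered from the deposited FPKM, which are fragments scaled by gene length and library size. The siNTC plus TVA libraries were the shallowest as a group (16660234 to 20263843) and the siCreb1 plus TVA libraries the deepest (21804748 to 24602484). Creb1 ranged from 10.3 to 12.4 FPKM in the 6 libraries with siNTC and from 1.17 to 1.81 in the 6 with siCreb1, so the knockdown left 13.4% of the siNTC mean without TVA and 13.1% with it. The 8 CD8 T cell markers summed to 2350 to 2359 FPKM in siNTC, 2328 to 2341 in siNTC plus TVA, 2206 to 2224 in siCreb1 and 2224 to 2240 in siCreb1 plus TVA libraries, whereas the CD4 T cell (5.37 to 7.22), B cell (9.48 to 14.2), myeloid (8.02 to 12.4), NK (4.69 to 6.72), dendritic (0.266 to 0.459) and erythroid (0.0250 to 0.637) sums were low. Myeloid marker sums were 8.02 to 8.24 in siNTC plus TVA and 11.1 to 12.4 in siCreb1 plus TVA libraries, led by Lyz2. Of the 8 CD8 T cell markers 5 were called lower and 1 higher in siCreb1 than in siNTC cells without TVA. There 7.21% of all genes were called lower and 6.52% higher. Quantile normalization left 1 of the 5. Rescaling to TPM, in which each library has the same total after correction for gene length, left 0. Between siCreb1 and siNTC cells with TVA 3 were lower and 1 higher, where 5.51% of all genes were called lower. In siCreb1 plus TVA against siNTC cells 6 were lower and 2 higher, where 9.41% of all genes were called lower. Either rescaling left 0 of these lower calls. In bulk samples fewer cells of a type and less RNA per cell cannot be told apart. The part of depth and of these marker sums in the results below was not tested.

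Of the 3 factors, Foxo1 was the most abundant in FPKM, a scale that corrects for gene length. Foxo1 (ENSMUSG00000044167, chr3:52268336-52353221, plus strand) is the main FOXO factor of naive T cells, where it maintains homing and survival genes. Its levels were 30.2, 29.2 and 29.5 FPKM in siNTC, 28.6, 28.6 and 27.8 in siNTC plus TVA, 27.0, 26.9 and 26.8 in siCreb1 and 27.1, 28.4 and 28.0 in siCreb1 plus TVA cells. The siNTC libraries lay above all others, although the gap to siNTC plus TVA was small. On log2(FPKM + 1), the scale of every difference below, Foxo1 fell by 0.13 ± 0.03 (SE) in siCreb1 against siNTC cells without TVA (adjusted p = 0.00688). The call was lost with TPM (-0.09, adjusted p = 0.108) and held in the other 20 alternatives. With TVA in siNTC cells its difference was -0.06 (95% interval -0.12 to -0.01, adjusted p = 0.195), and with TVA in siCreb1 cells 0.05 (-0.01 to 0.10).

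Foxo3 (ENSMUSG00000048756, chr10:42181841-42276755, minus strand), a family member with a role in apoptosis and in limiting lymphocyte responses, was measured at 18.0, 16.7 and 16.6 FPKM in siNTC libraries and, with TVA, 15.7, 15.4 and 15.4. It was at 16.2, 15.8 and 15.5 FPKM in siCreb1 and 15.1, 15.5 and 15.0 in siCreb1 plus TVA cells. Every siNTC library exceeded every library of the other groups. Foxo3 fell by 0.13 ± 0.03 with TVA in siNTC cells (adjusted p = 0.0338). This call was lost without any of 6 of the 12 libraries (siNTC 1, siNTC plus TVA 1, 2 or 3, siCreb1 2 or siCreb1 plus TVA 1; adjusted p 0.0508 to 0.104). Creb1 knockdown without TVA gave a difference of -0.10 (-0.18 to -0.03, adjusted p = 0.0622).

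Foxo4 (ENSMUSG00000042903, chrX:101254528-101260873, plus strand), the shortest of the 3 genes, was at 14.1, 13.6 and 12.9 FPKM in siNTC libraries and, with TVA, 11.6, 11.8 and 10.7. The siCreb1 libraries spread from 11.0 to 13.1 FPKM (12.5, 13.1 and 11.0) and the siCreb1 plus TVA libraries had 13.1, 13.5 and 12.3 FPKM. All siNTC plus TVA libraries lay below the siNTC and the siCreb1 plus TVA libraries, and they overlapped the siCreb1 libraries. Foxo4 fell by 0.23 ± 0.06 with TVA in siNTC cells (adjusted p = 0.0479), close to the threshold of 0.05. Leaving out any of 10 libraries ended the call (adjusted p 0.0531 to 0.148), and it held without siCreb1 replicate 2 or 3 only. The study picked Foxo4 from these samples, so its call is not independent evidence. In siCreb1 cells the TVA difference was 0.09 (-0.05 to 0.22). Between siCreb1 and siNTC cells with TVA the difference was 0.17 (0.04 to 0.31, adjusted p = 0.102), and limma-voom or the replicate block called it. The difference between the 2 TVA effects was 0.32 (0.13 to 0.51), the largest of the 10, with an adjusted p of 0.103.

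**Figure D1:**
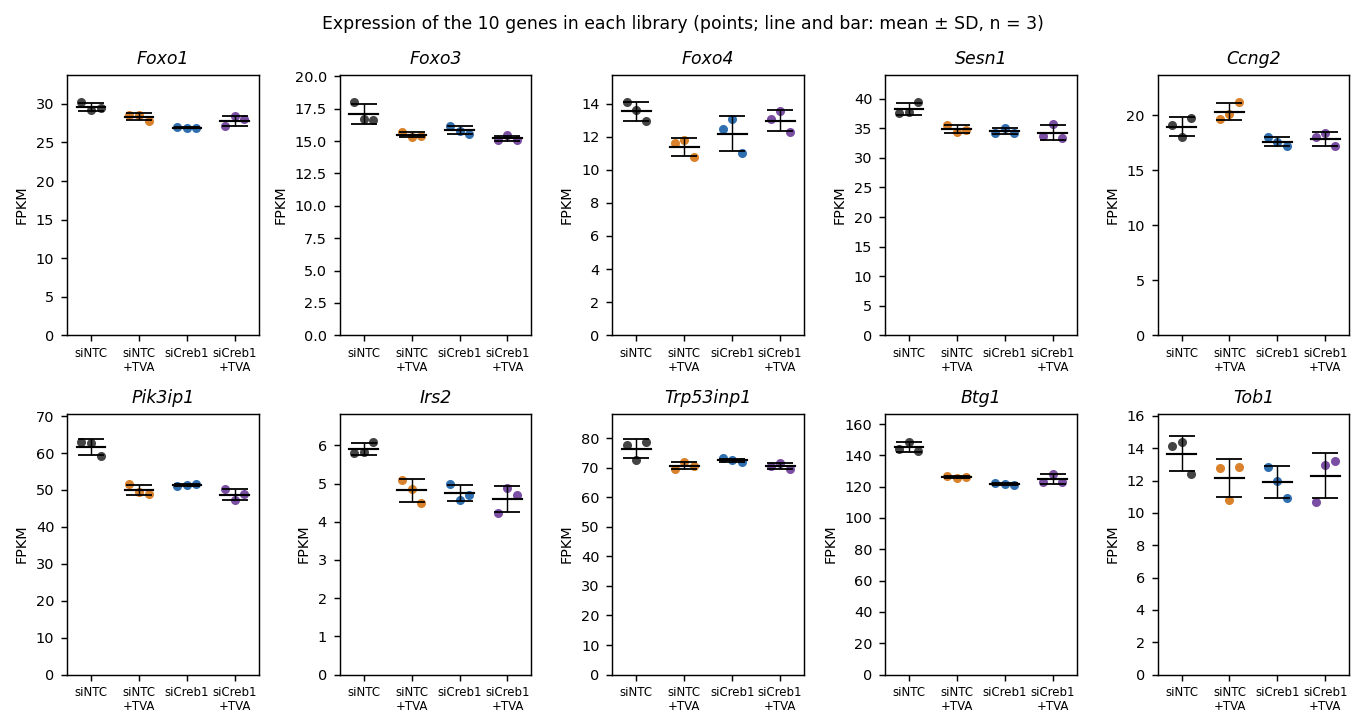
FPKM (vertical axes, from 0) of the 10 genes in each of the 12 libraries, by group on the horizontal axes; points are libraries, and the line and bar are the mean ± SD of 3. For Pik3ip1 the siNTC libraries lie at 59.1 to 63.0 FPKM and all others at 47.2 to 51.6, whereas for Ccng2 the siNTC plus TVA group is the highest.

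Of the 7 target genes, 2 act on the PI3K pathway, Pik3ip1 as an inhibitor and Irs2 as a receptor adaptor. Pik3ip1 (ENSMUSG00000034614, chr11:3330401-3342971, plus strand) encodes a transmembrane inhibitor of PI3K that restrains T cell activation. Its levels were 63.0, 62.7 and 59.1 FPKM in siNTC, 51.5, 49.4 and 48.9 in siNTC plus TVA, 51.2, 51.3 and 51.6 in siCreb1 and 50.2, 47.2 and 48.8 in siCreb1 plus TVA cells. The siNTC libraries stood alone, with no overlap with any of the other groups. Pik3ip1 fell by 0.30 ± 0.03 with TVA in siNTC cells (adjusted p = 0.000269) and by 0.26 ± 0.03 with Creb1 knockdown without TVA (adjusted p = 0.000886), and both calls held in all 21 alternative analyses. In siCreb1 cells the TVA difference was -0.08 (-0.15 to -0.003, adjusted p = 0.502). The effects of TVA differed by 0.22 ± 0.05 (adjusted p = 0.0343). This last call was lost when any of 9 libraries was left out (adjusted p 0.0687 to 0.0890), while it held without siNTC 3, siNTC plus TVA 1 or siCreb1 plus TVA 2. It was called in 8 of 20 alternatives. A gene model on the opposite strand, Gm12592, overlaps Pik3ip1 by 778 bases. It reached at most 0.847 FPKM, and whether counting used the strand is not stated.

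Irs2 (ENSMUSG00000038894, chr8:10984681-11008458, minus strand), an adaptor of the insulin and IGF1 receptors that FOXO factors induce as part of a feedback loop, was the least abundant of the 10. It was measured at 5.81, 5.82 and 6.09 FPKM in siNTC, 5.10, 4.87 and 4.49 in siNTC plus TVA, 4.98, 4.58 and 4.69 in siCreb1 and 4.22, 4.88 and 4.70 in siCreb1 plus TVA cells. The siNTC libraries were again above all others, and the remaining 3 groups overlapped. Irs2 fell by 0.25 ± 0.06 with TVA in siNTC cells (adjusted p = 0.0258) and by 0.26 ± 0.06 with Creb1 knockdown without TVA (adjusted p = 0.0128). The TVA call was lost without siNTC replicate 1, 2 or 3 or siNTC plus TVA replicate 2 or 3 (adjusted p 0.0534 to 0.0909), and the knockdown call held in all 21 alternatives. The TVA effects differed by 0.21 (0.03 to 0.39, adjusted p = 0.258).

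Sesn1 (ENSMUSG00000038332, chr10:41809935-41908424, plus strand) encodes a sestrin, a leucine-responsive inhibitor of mTORC1 that is induced by FOXO factors and by p53. Its levels were 37.5, 37.8 and 39.4 FPKM in siNTC, 35.6, 34.3 and 34.7 in siNTC plus TVA, 34.3, 35.1 and 34.3 in siCreb1 and 33.7, 35.7 and 33.4 in siCreb1 plus TVA cells. The siNTC libraries exceeded every other library, and the other 3 groups overlapped one another. Sesn1 fell by 0.13 ± 0.03 with TVA in siNTC cells (adjusted p = 0.0291) and by 0.14 ± 0.03 with Creb1 knockdown without TVA (adjusted p = 0.0127). Without siNTC replicate 2 or 3 or siNTC plus TVA replicate 2 or 3 the TVA call was lost (adjusted p 0.0571 to 0.102), and with TPM the knockdown call was lost (-0.10, adjusted p = 0.196).

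The antiproliferative BTG and TOB proteins recruit the CCR4-NOT deadenylase and speed the decay of mRNA, and Btg1 is linked to T cell quiescence. Btg1 (ENSMUSG00000036478, chr10:96617006-96622809, plus strand) was the most abundant of the 10, at 144, 149 and 143 FPKM in siNTC cells. It was at 127, 126 and 126 FPKM in siNTC plus TVA, 123, 122 and 121 in siCreb1 and 123, 128 and 123 in siCreb1 plus TVA cells. The lowest siNTC library had 143 FPKM and the highest of all the others 128, so siNTC stood apart. Btg1 fell by 0.20 ± 0.02 with TVA in siNTC cells (adjusted p = 0.000353) and by 0.25 ± 0.02 with Creb1 knockdown without TVA (adjusted p = 0.000135). In siCreb1 cells the TVA difference was 0.03 (-0.02 to 0.08). The TVA effects differed by 0.23 ± 0.03 (adjusted p = 0.00432). All 3 calls held in every alternative run for them, 21, 21 and 20. The related models Btg1-ps1 and Btg1-ps2 were listed at 0 FPKM.

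Tob1 (ENSMUSG00000037573, chr11:94211454-94215495, plus strand), the other member of that protein family, had the fewest reads of the 10 (411 to 741 per library). It was at 14.1, 14.4 and 12.4 FPKM in siNTC libraries and, with TVA, 12.8, 10.8 and 12.8. It was at 12.9, 11.9 and 10.9 FPKM in siCreb1 and 10.7, 12.9 and 13.2 in siCreb1 plus TVA cells. All 4 groups overlapped, and the SD within a group was 7.90% to 11.3% of the mean, against 0.484% to 2.43% for Btg1. Its differences were -0.16 (-0.37 to 0.05) for TVA in siNTC cells and -0.18 (-0.39 to 0.02) for knockdown without TVA, intervals that hold both 0 and the differences measured for Btg1.

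Trp53inp1 (ENSMUSG00000028211, chr4:11156431-11174379, plus strand), whose stress-induced protein takes part in p53 signalling and autophagy, was at 77.9, 72.7 and 78.8 FPKM in siNTC, 69.6, 72.1 and 70.6 in siNTC plus TVA, 73.2, 72.5 and 72.1 in siCreb1 and 70.7, 71.6 and 69.5 in siCreb1 plus TVA cells. Its siNTC plus TVA libraries lay below the siNTC libraries, the lowest of which, replicate 2, was close to them. The difference for TVA in siNTC cells was -0.11 (-0.18 to -0.04, adjusted p = 0.0524) and that for knockdown without TVA was -0.07 (-0.14 to -0.01, adjusted p = 0.138).

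Ccng2 (ENSMUSG00000029385, chr5:93267257-93276231, plus strand), which encodes an unconventional cyclin that halts the cell cycle, moved unlike the others. Its levels were 19.1, 18.1 and 19.7 FPKM in siNTC, 19.7, 20.1 and 21.2 in siNTC plus TVA, 18.0, 17.6 and 17.3 in siCreb1 and 18.0, 18.4 and 17.2 in siCreb1 plus TVA cells. Its highest values were in siNTC plus TVA cells, whose libraries overlapped only those of siNTC. Ccng2 was the only one of the 10 called in siCreb1 against siNTC cells with TVA, where it fell by 0.18 ± 0.04 (adjusted p = 0.0214). This call was lost without siNTC plus TVA replicate 2 or 3 or siCreb1 plus TVA replicate 1 or 3 (adjusted p 0.0535 to 0.0727). With TVA in siNTC cells the difference was 0.09 (0.005 to 0.18, adjusted p = 0.210).

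**Figure D2:**
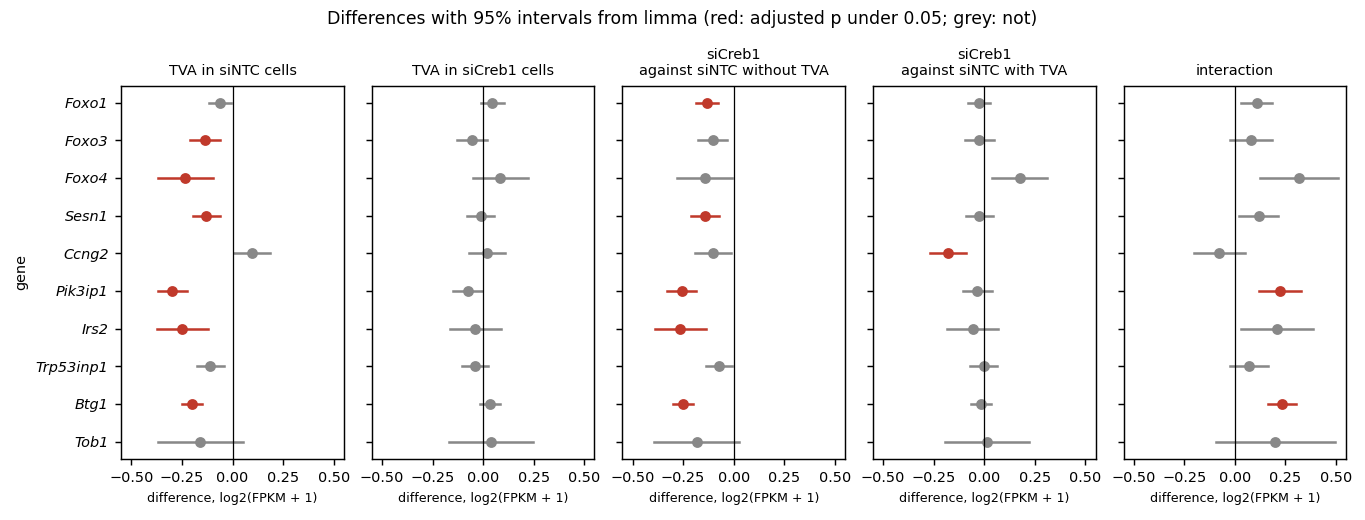
Difference in log2(FPKM + 1) (horizontal axes) with its 95% interval from limma for each of the 10 genes (vertical axis) in 5 comparisons, where the interaction is the TVA effect in siCreb1 cells minus that in siNTC cells. Red marks an adjusted p under 0.05: 6 genes for TVA in siNTC cells, 0 for TVA in siCreb1 cells, 5 and 1 for knockdown without and with TVA, and 2 for the interaction.

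Counted over the 10 genes, TVA in siNTC cells lowered 6 and raised 0, where 2.88% of the 11550 genes tested were called lower and 7.38% in either direction. The 6 include Foxo4, picked by the study from these samples. In 8 of the 10 no siNTC plus TVA library reached a siNTC library, against 12.2% of all genes lower in this way. The median difference was -0.15 for the 10 genes and -0.01 for all genes. In siCreb1 cells TVA gave 0 calls by limma, as against 0.537% of all genes, with an unadjusted p under 0.05 for 1 gene (Pik3ip1; 9.58% of all genes) and 0 calls by limma-voom on recovered reads. The median there was 0.003. In 2 of the 10 (Foxo1 and Btg1) every siCreb1 plus TVA library was above every siCreb1 library. In 3 (Foxo3, Pik3ip1 and Trp53inp1) all lay below, and the other 5 overlapped. The share of all genes separated in this way is not given here.

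Creb1 knockdown without TVA lowered 5 of the 10 and raised 0, where 7.21% of all genes were called lower. All 10 differences were negative, with a median of -0.14 against -0.001 for all genes, and in 7 of the 10 the siCreb1 libraries lay below every siNTC library, as in 16% of all genes. With TVA present, knockdown lowered 1 gene, where 5.51% of all genes were called lower, a share close to that background. The median was -0.02. TVA in siNTC cells and knockdown without TVA share the siNTC libraries and are not independent. Side by side, their differences were -0.30 and -0.26 for Pik3ip1, -0.25 and -0.26 for Irs2, -0.20 and -0.25 for Btg1, -0.13 and -0.14 for Sesn1, -0.13 and -0.10 for Foxo3, and -0.16 and -0.18 for Tob1. They were -0.23 and -0.14 for Foxo4, -0.06 and -0.13 for Foxo1, and -0.11 and -0.07 for Trp53inp1, and had opposite signs for Ccng2, at 0.09 and -0.10. Of the interaction effects 9 were positive and 1 negative, with 2 called higher against 0.459% of all genes (2.24% in either direction), and the median was 0.16 against 0.002.

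Ordered by mean FPKM, siNTC was the highest group for 9 of the 10 genes. The highest group and the next were called different for 4 genes (Sesn1, Pik3ip1, Irs2 and Btg1), and no other neighbours in that order were called different for any of the 10. Of pairs further apart, siNTC plus TVA and siCreb1, the highest and the lowest group for Ccng2, differed for that gene (0.20 ± 0.04 higher with TVA, adjusted p = 0.0135), and this pair was called for none of the other 9, where 10% of all genes were called in either direction. Cells with both treatments were lower than siNTC for 7 genes, all but Foxo4, Ccng2 and Tob1, where 9.41% of all genes were called lower.

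Over the 12 libraries 44 of the 45 pairs among the 10 genes had a positive Pearson r, with a median of 0.596. The points share libraries, groups and depth. The highest r was 0.910, between Sesn1 and Irs2, and the only negative one -0.313, between Foxo4 and Ccng2. Among all genes tested, those most like Pik3ip1 were Grk2 (r = 0.948), Ypel3 (0.945) and Gimap6 (0.942), and those most like Btg1 were Zfp36l2 (0.967), Thada (0.962) and Smad7 (0.954). Foxo1 was closest to Rbms2 (0.964), Foxo3 to Lbh (0.952), Foxo4 to Gla (0.948), Sesn1 to Pdk1 (0.926) and Irs2 to Slc45a4 (0.946). Ccng2, Trp53inp1 and Tob1 were closest to Dcaf10 (0.938), Pdcd4 (0.921) and Brap (0.872).

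**Figure D3:**
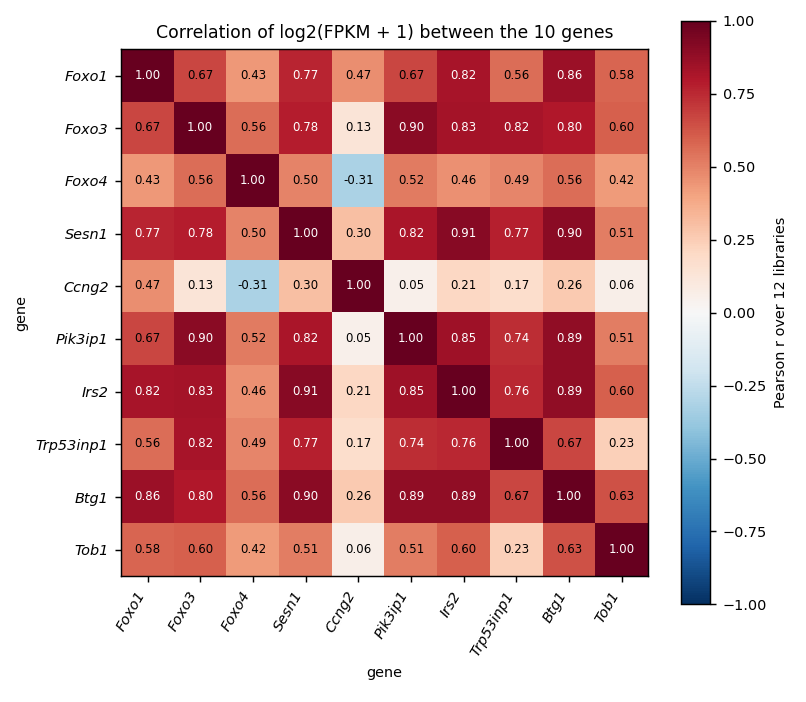
Pearson r of log2(FPKM + 1) over 12 libraries between each pair of the 10 genes, named on both axes; colour and number give r, from -1 to 1. Sesn1 and Irs2 reach 0.91, and the cell of Foxo4 and Ccng2 (-0.31) is the only one below 0.

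Upstream of FOXO, 39 of 40 listed regulators were tested. With TVA in siNTC cells 3 were lower and 1 higher, which is 10.3% of the list against 7.38% of all genes, a share near the background. Sgk1, a kinase that like AKT phosphorylates FOXO proteins, fell by 0.24, Pik3r5 and Pik3cd, subunits of PI3K, by 0.13 and 0.10, and the 14-3-3 gene Ywhah rose by 0.18. Creb1 knockdown without TVA lowered 4: Sgk1 by 0.49, Stk4 (a kinase of the Hippo pathway) by 0.17, Akt1 by 0.14 and Pik3r5 by 0.09. This was 10.3% of the list against 7.21% of all genes lower, and quantile normalization left 2 and TPM 1 of the 4. With TVA present the knockdown lowered 4, where 5.51% of all genes were called lower, and raised 1, with Akt1 at -0.18 and Ywhah at -0.17. Of the 4, quantile normalization left 2 and TPM 0. Only Sgk1 had a called interaction (0.35), which is 2.56% of the 39 against 2.24% of all genes, a share near the background. For TVA in siCreb1 cells limma called 0 of the 39. An unadjusted p under 0.05 held for 3, where it held for 9.58% of all genes, and limma-voom called 0. The list's median was -0.001 for TVA in siNTC cells and -0.01 for knockdown without TVA, near the medians of all genes.

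Of 35 other known FOXO target genes 33 were tested. TVA in siNTC cells lowered 7 (21.2%, against 2.88% of all genes) and raised 0, with a median of -0.09. Quantile normalization left 5 of the 7 and rescaling to TPM 4. Bbc3, which encodes the pro-apoptotic protein PUMA, fell by 0.29, Pink1, a mitochondrial quality kinase, by 0.23, S1pr1, the receptor for lymph node exit, by 0.17 and Il7r, the IL-7 receptor chain, by 0.16. For TVA in siCreb1 cells limma called 0 of the 33. An unadjusted p under 0.05 held for 12, where it held for 9.58% of all genes, and limma-voom called 2. Knockdown without TVA lowered 15 (45.5%, against 7.21% of all genes) and raised 0, with a median of -0.14. Klf2, a transcription factor of quiescent T cells, fell by 0.53, Cited2 by 0.48, S1pr1 by 0.45 and Gadd45b by 0.41. With TVA present the knockdown lowered 7 (21.2%, against 5.51% of all genes), with the cell cycle inhibitor Cdkn1a at -0.42 and S1pr1 at -0.23. Rescaling to TPM left 2 of them. Interactions were called for Il7r (0.28) and S1pr1 (0.22), where 2.24% of all genes were called.

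Of the 29 other quiescence genes tested, 9 are also in the list of FOXO targets. With TVA in siNTC cells 10 fell and 2 rose (41.4%, against 7.38% of all genes). With knockdown without TVA 16 fell and 2 rose, where 7.21% of all genes were called lower and 6.52% higher. Quantile normalization left 6 and TPM 4 of those 10, and 12 and 9 of those 16. The 2 that rose with TVA were Cdkn2c (0.42), which encodes a cell cycle inhibitor, and Rbl1 (0.29), a pocket protein. Slfn2, which holds T cells in quiescence, fell by 0.18. For TVA in siCreb1 cells limma called 0 of the 29. An unadjusted p under 0.05 held for 5, where it held for 9.58% of all genes, and limma-voom called 1. With knockdown Tsc22d3, a glucocorticoid-induced gene, fell by 0.35 without TVA and by 0.22 with it. With TVA present 10 of the 29 fell, where 5.51% of all genes were called lower, and 1 rose. Rescaling to TPM left 1 of the 10 and turned the list's median from -0.05 to 0.003.

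Of 11 genes of the same families as the targets 6 were tested. For TVA in siNTC cells limma called 0 of them, where 7.38% of all genes were called, and limma-voom called 0. An unadjusted p under 0.05 held for 2, and the share of all genes at that level is not given here. For TVA in siCreb1 cells limma called 0, where 0.537% of all genes were called. There an unadjusted p under 0.05 held for 0 and limma-voom called 0. Knockdown without TVA lowered Btg3 by 0.36 and Btg2 by 0.30, where 7.21% of all genes were called lower. With TVA it lowered 3, where 5.51% of all genes were called lower: Btg3 by 0.30, Btg2 by 0.19 and Ccng1 by 0.16. Of the 3, quantile normalization left 2 and TPM 0. Of 21 tested p53 target genes, which include Sesn1 and Trp53inp1, TVA in siNTC cells lowered 2 (Bbc3 and Sesn1). This was 9.52% of the 21, against 2.88% of all genes called lower. Knockdown lowered 3 without TVA (Btg2, Bbc3 and Sesn1) and 3 with it (Cdkn1a, Btg2 and Ccng1). Each was 14.3% of the 21, against 7.21% and 5.51% of all genes called lower. TPM left 1, 2 and 1 of these calls. For TVA in siCreb1 cells limma called 0 of the 21. An unadjusted p under 0.05 held for 5, where it held for 9.58% of all genes, and limma-voom called 1.

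Proliferation genes moved along with these comparisons. TVA in siNTC cells raised 29 of 30 and lowered 0 (median 0.48), where 4.49% of all genes were called higher, with Rrm2, a subunit of ribonucleotide reductase, at 0.70, Bub1 at 0.68 and Top2a at 0.65. For TVA in siCreb1 cells limma called 0. An unadjusted p under 0.05 held for 6, where it held for 9.58% of all genes, and limma-voom called 1. Knockdown raised 26 without TVA (median 0.27), where 6.52% of all genes were called higher. With TVA it lowered 13 (median -0.14), where 5.51% of all genes were called lower. Of these 13 quantile normalization left 7 and TPM 3. The interaction was called lower for 25 of 30 (median -0.42) and for 1.78% of all genes. Whether a shift in cycling cells had a part in the values of the 10 genes was not tested.

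**Figure D4:**
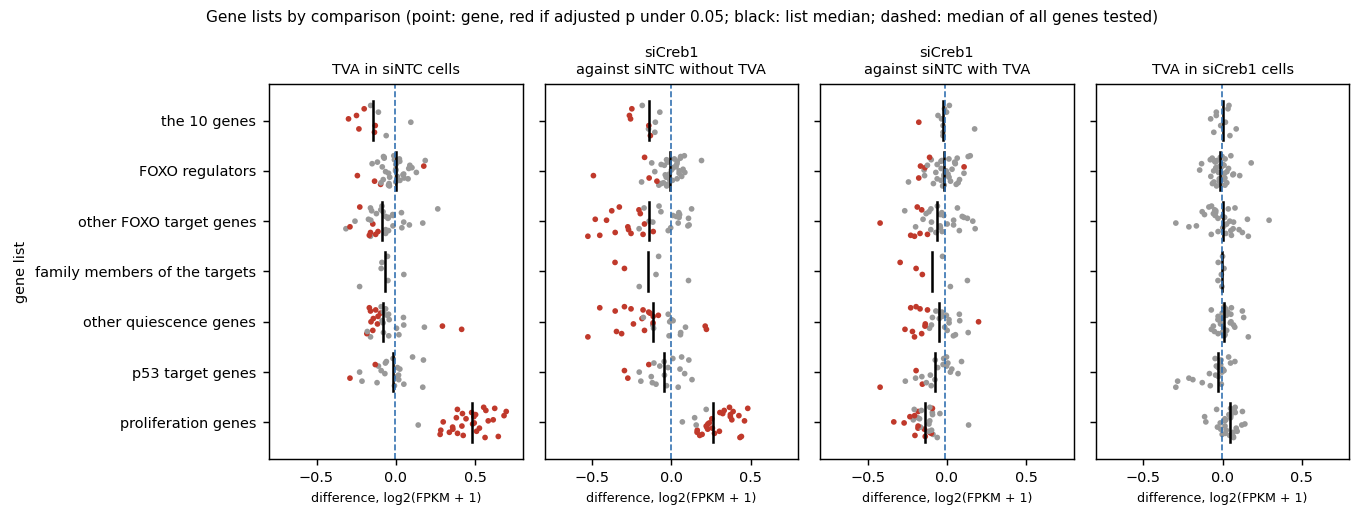
Difference in log2(FPKM + 1) (horizontal axes) of the 10 genes and of every tested gene of 6 lists (vertical axis) in 4 comparisons; red points have an adjusted p under 0.05, black bars are list medians and dashed lines the median of all genes tested. The 10 genes (median -0.15) and the other FOXO target genes (-0.09) sit left of the dashed line for TVA in siNTC cells and the proliferation genes (0.48) right of it, and no point is red for TVA in siCreb1 cells.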

How the data were processed

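RNA of mouse CD8+ T cells was sequenced in 12 libraries, 3 in each of 4 groups taken from the sample labels. The authors deposited FPKM values, one table per library, on GRCm38 (mm10) gene models, per the labels. Their methods refer to an earlier study, and the aligner, the counting program, its use of strand and the normalization between libraries are not given in the sources used here. The TVA dose comes from the study's methods. Multiplying FPKM by gene length gave whole multiples of a library-specific step (tolerance 0.01 reads) for at least 99.995% of values, and so the reads per library. Library sizes implied by these steps were 0.987 to 1.017 times the read sums, so the FPKM carry a small scaling between libraries. This ratio followed the groups. It was 0.987 to 0.999 in siNTC, 0.999 to 1.004 in siNTC plus TVA, 1.005 to 1.007 in siCreb1 and 1.013 to 1.017 in siCreb1 plus TVA libraries. A larger ratio lowers every FPKM of its library, and rescaling to TPM cancels it.

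Genes averaging 1 FPKM or more, 11550 in number, entered a limma 3.58.1 fit of log2(FPKM + 1) in R 4.3.3 (a coefficient per group, all 12 libraries, eBayes with a mean-variance trend). The pseudocount understates changes of low genes. P-values were two-sided and Benjamini-Hochberg adjusted over all genes tested, and a gene was called at 0.05. A permutation of 3 against 3 libraries could not go below 0.1. The interaction is the TVA effect in siCreb1 minus that in siNTC cells. Replicate pairs differed by 3.71 to 5.69 times the counting variance, so library spread limits precision more than depth. Steps were checked on simulated data. Figures used matplotlib 3.10.9 in Python 3.11.15.

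The 10 genes and all gene lists were chosen with earlier results of these data known. Named genes are the 10, Creb1, per list and comparison up to 4 called genes with the largest difference, and the tested genes most correlated with each of the 10. Lyz2 and the overlapping or related gene models were named after their values were seen. Positions of the 10 equal those in GENCODE vM21. The settings varied were the pseudocount (0.1), the filter (29700 genes listed above 0 in any library, or 7480 averaging 5 FPKM), scaling (by quantiles or to TPM), a replicate block, no trend, only the libraries compared and leaving out each library; limma-voom on recovered reads, scaled by median ratios, was chosen after seeing the data in place of the planned TMM version.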

Additional observations from a re-analysis of the deposited data

Results flagged for a closer look

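The TVA effect differed between siCreb1 and siNTC cells, by the interaction term of the limma fit, for 2 of the 10 genes, where 0.459% of all genes were called higher and 2.24% in either direction. For Btg1 the difference between the effects was 0.23 ± 0.03 (SE) on log2(FPKM + 1), with an adjusted p of 0.00432: TVA gave -0.20 in siNTC and 0.03 in siCreb1 cells. For Pik3ip1 it was 0.22 ± 0.05, with an adjusted p of 0.0343: TVA gave -0.30 in siNTC and -0.08 in siCreb1 cells. The Pik3ip1 call was lost when any of 9 of the 12 libraries was left out and held in 8 of 20 alternatives. In both genes every siNTC plus TVA library was below every siNTC library, as in 12.2% of all genes. In siCreb1 cells the TVA libraries of Btg1 all lay above the others (lowest 123.1 against highest 122.5 FPKM) and those of Pik3ip1 all below. Neither TVA difference in siCreb1 cells was called (limma adjusted p = 0.706 and 0.502). For 5 of the 10 genes those libraries overlapped.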

How the results depend on the processing

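The calls of Pik3ip1 and Btg1 for TVA in siNTC cells and for knockdown without TVA held in all 21 alternatives, as did that of Irs2 for knockdown without TVA and the Btg1 interaction in its 20. The other calls of TVA in siNTC cells held less often: Irs2 in 13, Sesn1 in 12, Foxo3 in 11 and Foxo4 in 6 of 21. The causes were not tested. Of the 10 genes, TVA in siNTC cells called 6, and 2 with all genes above 0, 3 with TPM, 2 with only the libraries compared and 2 to 6 leaving out each library. Knockdown without TVA called 5, and 3 with TPM and 5 to 6 leaving out each library. Knockdown with TVA called 1, and 0 with quantile normalization or TPM, 2 with the replicate block or limma-voom (Foxo4 added, higher) and 0 to 1 leaving out each library. The interaction called 2, and 1 with all genes above 0, TPM or no trend, and 1 to 2 leaving out each library. TVA in siCreb1 cells called 0 in all alternatives.

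Differences near 0 changed sign. With quantile normalization they became 0.00691 for Sesn1 (TVA in siCreb1 cells) and, for knockdown with TVA, 0.00815 for Foxo1, 0.0117 for Sesn1, 0.00207 for Pik3ip1, 0.0365 for Trp53inp1 and 0.0609 for Btg1. With TPM the latter became 0.0255 for Foxo1, 0.0247 for Foxo3, 0.0267 for Sesn1, 0.0172 for Pik3ip1, 0.0493 for Trp53inp1 and 0.0365 for Btg1, and with limma-voom 0.00649 for Trp53inp1. Leaving out each library gave, for TVA in siCreb1 cells, -0.0402 to 0.00567 for Sesn1, -0.00177 to 0.0443 for Ccng2, -0.0760 to 0.01001 for Irs2 and -0.0168 to 0.130 for Tob1, and for knockdown with TVA, -0.0147 to 0.0106 for Trp53inp1 and -0.0608 to 0.105 for Tob1.

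Over all genes, TVA in siNTC cells called 852, and 563 with all genes above 0, 552 with TPM and 368 with only the libraries compared; leaving out each library gave 558 to 767. TVA in siCreb1 cells called 62, and 36 with TPM, 34 with the replicate block, 160 with limma-voom, 39 with only the libraries compared and 30 to 67 leaving out each library. Knockdown without TVA called 1586, and 992 with all genes above 0, 817 with only the libraries compared and 1020 to 1532 leaving out each library. Knockdown with TVA called 1172, and 683 with all genes above 0, 738 with TPM and 599 to 1245 leaving out each library. The interaction called 259, and 150 with TPM, 450 with limma-voom and 168 to 237 leaving out each library. TPM moved the median of all genes to 0.04 for knockdown without TVA and 0.03 with it.

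Same-numbered libraries did not deviate together (r from -0.06 to 0.06 over 18 pairs). With 3 libraries per group this cannot exclude a shared mouse or culture, and the main fit used no pairing. With the replicate block the calls among the 10 were 4, 0, 6, 2 and 3 for TVA in siNTC, TVA in siCreb1, knockdown without TVA, knockdown with TVA and the interaction. The limma-voom version with TMM was not run. With 512 to 799 reads for Irs2, 684 to 1180 for Foxo4 and 411 to 741 for Tob1, counting error was largest for these among the 10.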
